A study of Mus musculus with 24 samples.

Results

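Murine B-cell acute lymphoblastic leukemia cells in which Foxo1 had been targeted for deletion were followed from 24 h to 48 h of exposure to 4-hydroxytamoxifen (4-OHT). Of the 24 RNA-seq libraries of the series, 6 were chosen for this comparison by their labels, 3 from cells given 200 nM 4-OHT for 24 h and 3 from cells given it for 48 h. Every library came from bone-marrow-derived leukemia cells that carried the BCR-ABL1 fusion oncogene, floxed Foxo1 alleles (Foxo1 fl/fl) and Cre-ERT2, a Cre recombinase fused to a modified estrogen receptor that becomes active when 4-OHT binds it. The vehicle groups of the same cells, 3 libraries at each time, received ethanol (EtOH) in an equivalent amount, and the library titles call them Cre-minus although the series text gives the same Cre-ERT2 Foxo1 fl/fl cells for all groups. A second arm of the same cells received 70 nM AS1842856, a small-molecule inhibitor of FOXO1, or its solvent DMSO, again for 24 h or 48 h with 3 libraries each. No group held cells without the floxed alleles that were given 4-OHT, so loss of Foxo1, Cre activity and 4-OHT itself cannot be told apart, and the labels do not say whether the replicates came from separate cultures. P-values therefore measure library-to-library spread, part of which may be technical.

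FOXO1 is a forkhead transcription factor that is held in the cytoplasm when AKT, downstream of the PI3 kinase pathway, phosphorylates it. In the nucleus it drives genes for cell-cycle exit, survival or death, and metabolism, and in B-cell precursors it is needed for the interleukin-7 receptor, for the RAG recombinase genes and for passage through the pre-B stage. Growing leukemia cells also depend on MYC, which raises the machinery for making ribosomes and polyamines, and on ATF4, the transcription factor of the integrated stress response, which raises amino acid synthesis, amino acid import and the enzymes that load amino acids onto tRNA.

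Between 24 h and 48 h of 4-OHT, most tested genes of ribosome biogenesis (27 of 30), tRNA charging (15 of 20), amino acid supply and the ATF4 response (17 of 29), glycolysis (13 of 21) and chaperones (16 of 22) fell, mostly by a small amount. In the other direction, 13 of 25 growth restraint genes, 15 of 30 lysosome genes, 15 of 24 migration genes, 9 of 19 mature B-cell and antigen presentation genes and 10 of 21 interferon-stimulated genes rose, and nearly all the rest of those lists did not pass the test. Of all tested genes 11.6% fell and 10.6% rose. In EtOH cells 12 of the 30 lysosome genes, 9 of the migration genes and 7 of the antigen presentation list rose over the same day. Of all tested genes 13.4% rose and 12.0% fell in EtOH cells. Ribosome biogenesis and chaperone genes also fell there, 11 of 30 with no rise and 8 of 22 with 1 rise, while 3 glycolysis genes fell and 5 rose. The ATF4 list and the tRNA synthetase list moved in opposite directions in the 4-OHT and EtOH cells over the same day. The promoters of genes from these lists are shown first, because the factors MYC and ATF4 have known binding motifs.

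Promoters were taken from RefSeq on the GRCm38.p6 assembly, 300 bases around the annotated start of each gene. Both strands were searched for CACGTG, the E-box that MYC and its partner MAX bind. They were also searched for TGATGNAAT, a spelling of the composite element that ATF4 binds with a C/EBP partner. Spellings with another last base were not counted, such as TGATGAAAC in the promoter of Asns. The E-box was present in 7 of 23 ribosome biogenesis promoters with an entry (30.4%), in 12.2% of the promoters of tested genes and in 8.09% of all 27025 promoters of the table. Its share was as high in lists that moved otherwise, 31.8% for lysosome and autophagy genes, of which none fell, and 30.8% for p53 targets, and it was 33.3% for tRNA synthetases. All 7 ribosome biogenesis genes with the E-box fell from 24 h to 48 h, as did 13 of the 16 without it. In the spelling searched, the composite element was present in 3 of 12 tRNA synthetase promoters (25%) and 2 of 25 ATF4-list promoters (8.0%). Its share was 0.5% of tested genes and 1.08% of the whole table. Of these 5 genes 3 fell, Pycr1, Gars and Iars, while Nupr1 at 0.25 and Aars at −0.05 were not called. Neither motif contains the other, and the sequences below were chosen because they hold a match. The matched bases are in capitals, read 5′ to 3′ on the strand of the gene, and a match in either orientation was allowed. Mybbp1a, which encodes a nucleolar MYB-binding protein (chr11:72441077-72441376, + strand), and Nop2, which encodes a ribosomal RNA methyltransferase (chr6:125131633-125131932, + strand), hold the E-box. Pycr1, which encodes the last enzyme of proline synthesis (chr11:120643699-120643998, − strand), and Gars, which encodes the glycyl-tRNA synthetase (chr6:55037751-55038050, + strand), hold the composite element.
Mybbp1a: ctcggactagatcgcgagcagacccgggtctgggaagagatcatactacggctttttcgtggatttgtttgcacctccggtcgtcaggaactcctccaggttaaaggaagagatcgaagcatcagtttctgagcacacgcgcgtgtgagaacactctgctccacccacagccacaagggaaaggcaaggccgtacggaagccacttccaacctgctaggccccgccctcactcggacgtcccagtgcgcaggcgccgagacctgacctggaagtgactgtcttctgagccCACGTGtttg
Nop2: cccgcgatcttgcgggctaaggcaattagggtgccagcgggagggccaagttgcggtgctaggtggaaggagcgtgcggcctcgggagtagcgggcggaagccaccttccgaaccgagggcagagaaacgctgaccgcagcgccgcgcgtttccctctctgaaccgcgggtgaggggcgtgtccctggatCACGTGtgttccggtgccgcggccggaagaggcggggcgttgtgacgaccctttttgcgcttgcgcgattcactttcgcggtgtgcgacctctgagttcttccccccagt
Pycr1: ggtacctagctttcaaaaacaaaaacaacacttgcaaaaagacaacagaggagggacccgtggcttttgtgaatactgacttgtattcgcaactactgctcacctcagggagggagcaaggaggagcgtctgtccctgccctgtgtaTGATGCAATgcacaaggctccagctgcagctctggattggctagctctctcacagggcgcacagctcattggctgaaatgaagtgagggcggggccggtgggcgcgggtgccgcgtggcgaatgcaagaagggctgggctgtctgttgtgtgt
Gars: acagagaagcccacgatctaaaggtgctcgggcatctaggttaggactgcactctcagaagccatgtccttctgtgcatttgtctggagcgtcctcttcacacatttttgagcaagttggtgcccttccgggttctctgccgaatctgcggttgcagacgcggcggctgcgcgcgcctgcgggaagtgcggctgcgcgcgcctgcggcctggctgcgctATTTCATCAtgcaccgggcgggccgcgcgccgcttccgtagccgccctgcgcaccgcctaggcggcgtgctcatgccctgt

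All expression values below are the log2 values that the authors deposited after normalisation. A difference of 1 is a doubling of the library value, and errors after ± are standard errors of a difference with n = 3 libraries in each group. The 6 libraries of 4-OHT cells had medians of 9.20 to 9.21 over the 11470 tested genes. The root mean square difference between libraries was 0.144 to 0.18 among the 24 h replicates, 0.159 to 0.175 among the 48 h replicates and 0.221 to 0.266 between the times, so every pair across times differed more than any pair within a time. The deposited values keep no counts, so sequencing depth is unknown. A gene was called changed at an adjusted p under 0.05 in limma.

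Foxo1 (ENSMUSG00000044167, chr3:52268336-52353221 on GRCm38) was already low at the first time. It stood at 8.18, 8.27 and 7.99 in the 24 h libraries of 4-OHT cells and at 8.16, 8.02 and 8.12 in the 48 h libraries, and the 2 sets overlapped. The EtOH libraries stood at 9.88, 9.84 and 9.80 at 24 h and at 10.02, 10.11 and 10.07 at 48 h, above every 4-OHT library. Relative to EtOH, Foxo1 was lower by −1.70 ± 0.07 at 24 h and −1.97 ± 0.06 at 48 h (adjusted p = 4.09e-06 and 1.01e-07 in limma), the direction the labels give. The change from 24 h to 48 h of 4-OHT, −0.04 ± 0.08, did not pass the test (adjusted p = 0.743). The labels do not say which exons recombine, so the values may include transcript outside the deleted segment. The other FOXO genes gave no called change in 4-OHT cells either, with Foxo3 at 0.13 ± 0.05 (adjusted p = 0.0971), Foxo4 at 0.08 ± 0.05 (adjusted p = 0.288) and Foxo6, which was barely above the level filter, at 0.09 ± 0.06 (adjusted p = 0.329).

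The cells carried the markers of early B cells throughout. Cd79a, Cd79b, Pax5, Ebf1, Vpreb1, Igll1 and Dntt stood between 11.63 and 14.42 in all 6 libraries of 4-OHT cells. Of the defining genes of other cell types, Cd3e, Cd3d, Adgre1, Mpo and Col1a1 were below the level filter and Hbb-bs was listed at 0, while Csf1r stood between 3.46 and 4.43 and Pecam1 between 10.25 and 10.70.

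Of the 11470 genes tested, 2556 (22.3%) changed between 24 h and 48 h of 4-OHT, 1220 (10.6%) rising and 1336 (11.6%) falling. The changes were small on the scale of the library values. The median size among called genes was 0.26, only 242 called genes moved by at least 0.5, and 19 tested genes moved by at least 1. Differences between 4-OHT and EtOH cells on this scale were smaller than the deposited log2 fold changes. Their median ratios to those fold changes were 0.676 at 24 h and 0.664 at 48 h. Falls were concentrated in well expressed genes, with 1106 falls and 553 rises among the 5735 genes at or above the median level, against 230 falls and 667 rises below it. Without the third 48 h library the number of called genes was 1525. The median over all tested genes was 0.001.

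The 10 largest rises among well expressed genes ran from 0.73 to 1.103. Pik3ip1, which encodes a transmembrane inhibitor of PI3 kinase and is a known FOXO target, stood at 9.57, 9.67 and 9.53 at 24 h and at 10.48, 10.45 and 10.67 at 48 h, a rise of 0.94 ± 0.07 (adjusted p = 0.000224). Btg2, an antiproliferative gene induced by p53 and by FOXO factors, stood at 9.31, 9.39 and 9.42 and then at 10.08, 10.18 and 10.22, a rise of 0.79 ± 0.05 (adjusted p = 0.000153). For both genes every 48 h library was above every 24 h library. Mef2c, a transcription factor needed for B-cell proliferation and survival, stood at 9.61, 9.70 and 9.41 and then at 10.45, 10.43 and 10.19, a rise of 0.79 ± 0.09 (adjusted p = 0.00125). Trp53inp1, a p53 target that takes part in autophagy, stood at 11.15, 11.15 and 11.16 and then at 11.83, 11.92 and 11.98, a rise of 0.76 ± 0.04 (adjusted p = 6.89e-05). Mef2c at 48 h reached the level of the EtOH cells, whereas Trp53inp1 moved further above them.

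Ighg2b, an immunoglobulin heavy-chain constant gene, rose by 1.103 ± 0.07 (adjusted p = 0.000106), from 9.82, 9.88 and 9.86 to 10.83, 10.94 and 11.10. Its reads can be shared with the other heavy-chain constant genes, so which copy changed is uncertain. The remaining 5 were Snn at 0.77, Pqlc3 at 0.76, the long non-coding RNA Neat1 at 0.74, Rhobtb2 at 0.73 and Tmem86a at 0.73, all with adjusted p of 0.000362 or less. Tmem86a also rose in EtOH cells, by 0.50 (adjusted p = 0.00145 in limma). Its difference between the arms, 0.23 ± 0.08, did not pass (adjusted p = 0.0837 in limma).

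**Figure D1:**
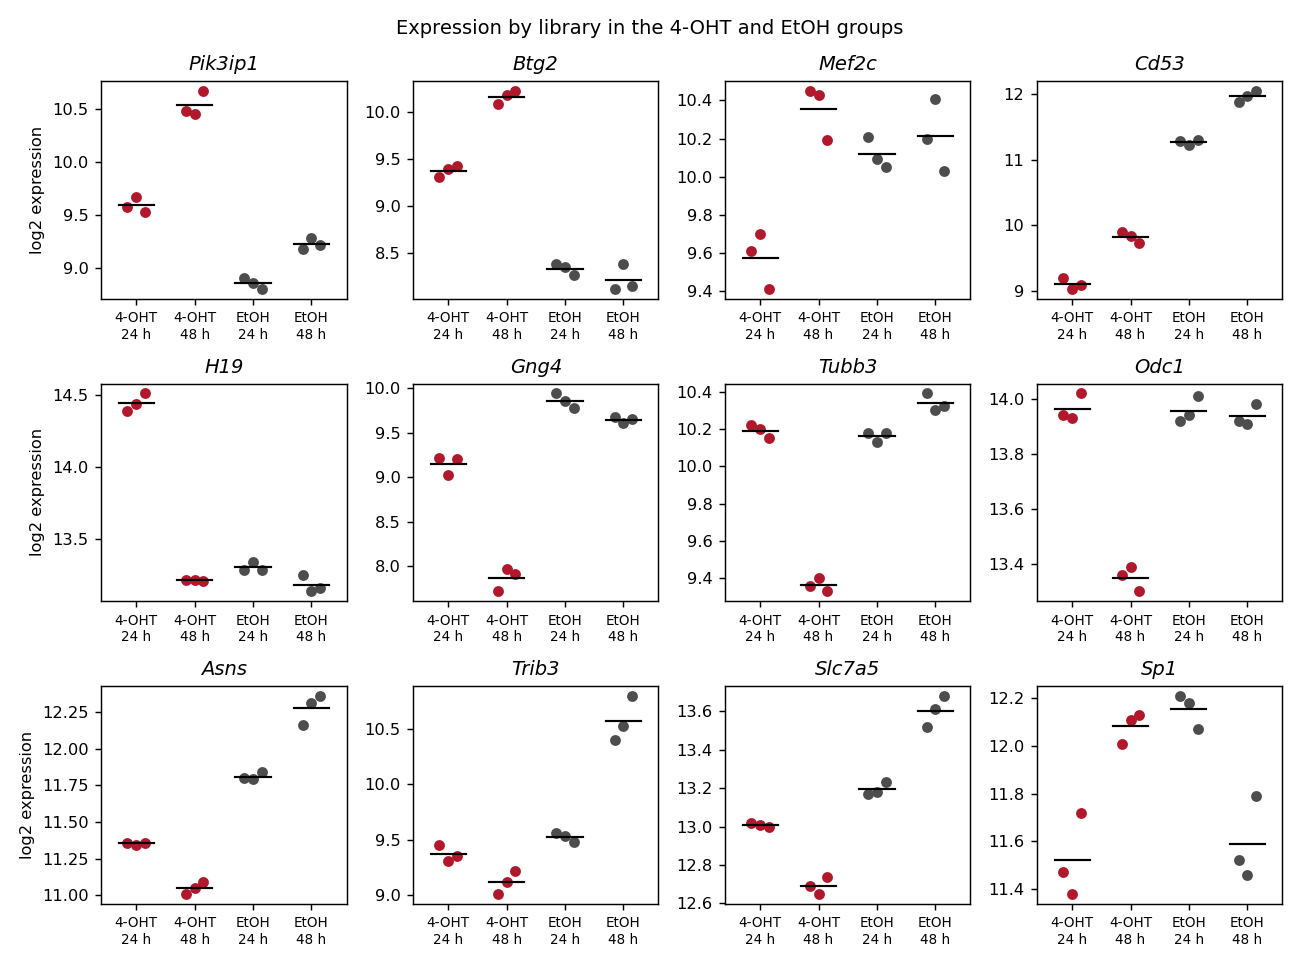
Log2 expression (y axis) of 12 genes in each of the 3 libraries of the 4-OHT groups (red) and EtOH groups (grey) at 24 h and 48 h, with a black line at the mean of each group and a separate y range for each gene. Pik3ip1 and Btg2 rose in 4-OHT cells that already stood above EtOH cells, H19 fell from 14.39 or more to the level of EtOH cells, and Asns and Slc7a5 fell in 4-OHT cells and rose in EtOH cells.

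The 10 largest falls took in a pair of genes that changed by more than 1. Gng4, which encodes a G-protein gamma subunit, stood at 9.22, 9.02 and 9.20 at 24 h and at 7.72, 7.97 and 7.92 at 48 h, a fall of −1.28 ± 0.08 (adjusted p = 0.000151). H19, an imprinted long non-coding RNA that also gives rise to a microRNA (chr7:142575529-142578143), stood at 14.39, 14.44 and 14.51 and then at 13.22, 13.22 and 13.21, a fall of −1.23 ± 0.04 (adjusted p = 5.1e-06). The EtOH libraries held H19 at 13.29, 13.34 and 13.29 at 24 h and at 13.25, 13.14 and 13.16 at 48 h. The 24 h libraries of 4-OHT cells stood above EtOH by 1.14 ± 0.04 (adjusted p = 1.09e-06), and at 48 h the difference of 0.03 ± 0.03 did not pass (adjusted p = 0.457). DMSO libraries of the same cells, which received no 4-OHT, varied widely in H19, at 13.85, 13.47 and 14.40 at 24 h and at 12.87, 13.84 and 14.47 at 48 h, so some of them were as high as the 24 h libraries of 4-OHT cells.

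Tubb3, which encodes a beta-tubulin best known from neurons, fell from 10.22, 10.20 and 10.15 to 9.36, 9.40 and 9.33, a change of −0.83 ± 0.04 (adjusted p = 5.4e-05). Odc1, the rate-limiting enzyme of polyamine synthesis, fell from 13.94, 13.93 and 14.02 to 13.36, 13.39 and 13.30, and Srm, the spermidine synthase that follows it, from 11.25, 11.28 and 11.27 to 10.76, 10.73 and 10.60. Their changes were −0.61 ± 0.04 and −0.57 ± 0.05 (adjusted p = 0.000151 and 0.000349), with no overlap between times. In EtOH cells Odc1 stayed between 13.91 and 14.01 over both times. The others were Ssc5d at −0.93, Vat1l at −0.89, the dipeptidase gene Cndp2 at −0.57, Mpzl2 at −0.51 and Sema7a, a membrane-bound semaphorin, at −0.50. The calls of all 20 of these genes held when any 1 of the 6 libraries was left out, and Mpzl2 had the highest adjusted p of the 20, 0.011. Mpzl2 fell as much in EtOH cells, by −0.52 (adjusted p = 0.00166 in limma). Its difference between the arms, 0.01 ± 0.13, did not pass (adjusted p = 0.958 in limma).

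The MYC and ribosome biogenesis list fell almost as a whole. Of its 30 members, all of them tested, 27 fell (90%), none rose and 3 did not pass, with a median of −0.36 against 0.001 over all genes tested and against the 11.6% of tested genes that fell. Besides Odc1 and Srm, Mybbp1a stood at 12.98, 12.98 and 12.92 at 24 h and at 12.59, 12.52 and 12.50 at 48 h, a fall of −0.43 ± 0.04 (adjusted p = 0.000433). Gar1, a protein of the RNA-guided pseudouridylation complex, stood at 10.83, 10.78 and 10.84 and then at 10.45, 10.49 and 10.39, a fall of −0.38 ± 0.04 (adjusted p = 0.00105). In both genes every 48 h library was below every 24 h library. Myc itself, named here after its values were seen, was at 12.65, 12.62 and 12.65 and then at 12.41, 12.40 and 12.37, a fall of −0.25 ± 0.03 (adjusted p = 0.00171), and in EtOH cells it stood between 13.03 and 13.09 at both times. Over the same day in EtOH cells 11 of the 30 fell and none rose, with a median of −0.09. The difference between the arms was tested gene by gene, and 19 of the 30 fell more in 4-OHT cells than in EtOH cells. Of all tested genes 9.03% were lower by that test. The structural proteins of the ribosome did not share this pattern, since of 30 cytosolic ribosomal protein genes 2 rose, Rps19 at 0.18 and Rps7 at 0.19, and 2 fell, Rpl5 at −0.23 and Rps2 at −0.26, with a median of 0.04. The call of Rpl5 held without any 1 library. The calls of Rps19 and Rps7 were each lost on leaving out any library other than the third of 24 h, with adjusted p of at most 0.0948 and 0.131, and that of Rps2 on leaving out the second or the third of 24 h or the first or second of 48 h, with at most 0.0944.

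The ATF4 list, which holds amino acid transporters, serine, proline and asparagine synthesis enzymes and stress regulators, fell in 4-OHT cells and rose in EtOH cells. Of the 29 members tested out of 32, 17 fell (58.6%) and 2 rose between 24 h and 48 h of 4-OHT, with a median of −0.17. In EtOH cells 21 rose and 1 fell, with a median of 0.32, where 13.4% of tested genes rose and 12.0% fell in that comparison and 25.4% were called in all. Asns, the asparagine synthetase, stood at 11.36, 11.34 and 11.36 and then at 11.01, 11.05 and 11.09 in 4-OHT cells, a fall of −0.31 ± 0.04 (adjusted p = 0.0012). In EtOH cells Asns stood at 11.80, 11.79 and 11.84 and then at 12.16, 12.31 and 12.36, a rise of 0.46 (adjusted p = 0.00115). Every library of 4-OHT cells was below every library of EtOH cells, and the gap widened at 48 h. Slc7a5, the large subunit of the LAT1 importer of leucine and other large amino acids, stood at 13.02, 13.01 and 13.00 and then at 12.69, 12.65 and 12.74, a fall of −0.32 ± 0.03 (adjusted p = 0.00101), while in EtOH cells it rose from 13.17, 13.18 and 13.23 to 13.52, 13.61 and 13.68. Pycr1, whose promoter is shown above, fell by −0.41 ± 0.06 (adjusted p = 0.00301), from 9.57, 9.60 and 9.76 to 9.21, 9.28 and 9.19, and Shmt2, the mitochondrial serine hydroxymethyltransferase, fell by −0.34 ± 0.04 (adjusted p = 0.00153).

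The difference between the arms passed the test for 25 of the 29 ATF4-list genes, all of them lower in 4-OHT cells, with a median difference of −0.60 against −0.005 over all genes. Of all tested genes, 15.6% differed between the arms, 6.57% higher and 9.03% lower in 4-OHT. The 2 members that rose in 4-OHT cells, named after their values were seen, were Ddit3, which encodes the stress factor CHOP, at 0.58 ± 0.10 (adjusted p = 0.00521) and Ddit4, an inhibitor of the mTORC1 kinase that FOXO factors also induce, at 0.19 ± 0.06 (adjusted p = 0.0423). The call of Ddit4 was lost without the first or second library of 24 h or the second or the third of 48 h, with an adjusted p of at most 0.129. Ddit3 rose by more in EtOH cells, 1.18, and its difference between the arms was −0.60 (adjusted p = 0.0329). The transcript of Atf4 itself, also named after its values were seen, stood at 12.27, 12.22 and 12.30 and then at 12.18, 12.18 and 12.17 in 4-OHT cells, a difference of −0.09 ± 0.03 that did not pass (adjusted p = 0.0894). In EtOH cells Atf4 rose from 12.60, 12.56 and 12.67 to 12.83, 12.90 and 13.01, and the 2 changes differed by −0.39 (adjusted p = 0.00133).

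The cytosolic aminoacyl-tRNA synthetases, which load amino acids onto tRNA, divided the arms in the same way. Of the 20 members, all tested, 15 fell (75%) and none rose in 4-OHT cells, with a median of −0.18, while 15 rose and none fell in EtOH cells, with a median of 0.22. Tars, the threonyl enzyme, stood at 11.69, 11.66 and 11.65 and then at 11.42, 11.45 and 11.39 in 4-OHT cells, and at 11.87, 11.84 and 11.84 and then at 12.09, 12.09 and 12.13 in EtOH cells. Gars stood at 12.40, 12.33 and 12.40 and then at 12.19, 12.16 and 12.15 in 4-OHT cells, and at 12.67, 12.66 and 12.71 and then at 12.93, 12.94 and 13.00 in EtOH cells. The groups did not overlap for either gene, and the 4-OHT changes were −0.25 ± 0.03 and −0.21 ± 0.04 (adjusted p = 0.00232 and 0.00483). Farsb, a phenylalanyl subunit, fell by −0.29 ± 0.04 and Lars, the leucyl enzyme, by −0.21 ± 0.04 (adjusted p = 0.00198 and 0.0057). The difference between the arms passed for 17 of the 20, all lower in 4-OHT cells, against 15.6% of all tested genes.

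**Figure D2:**
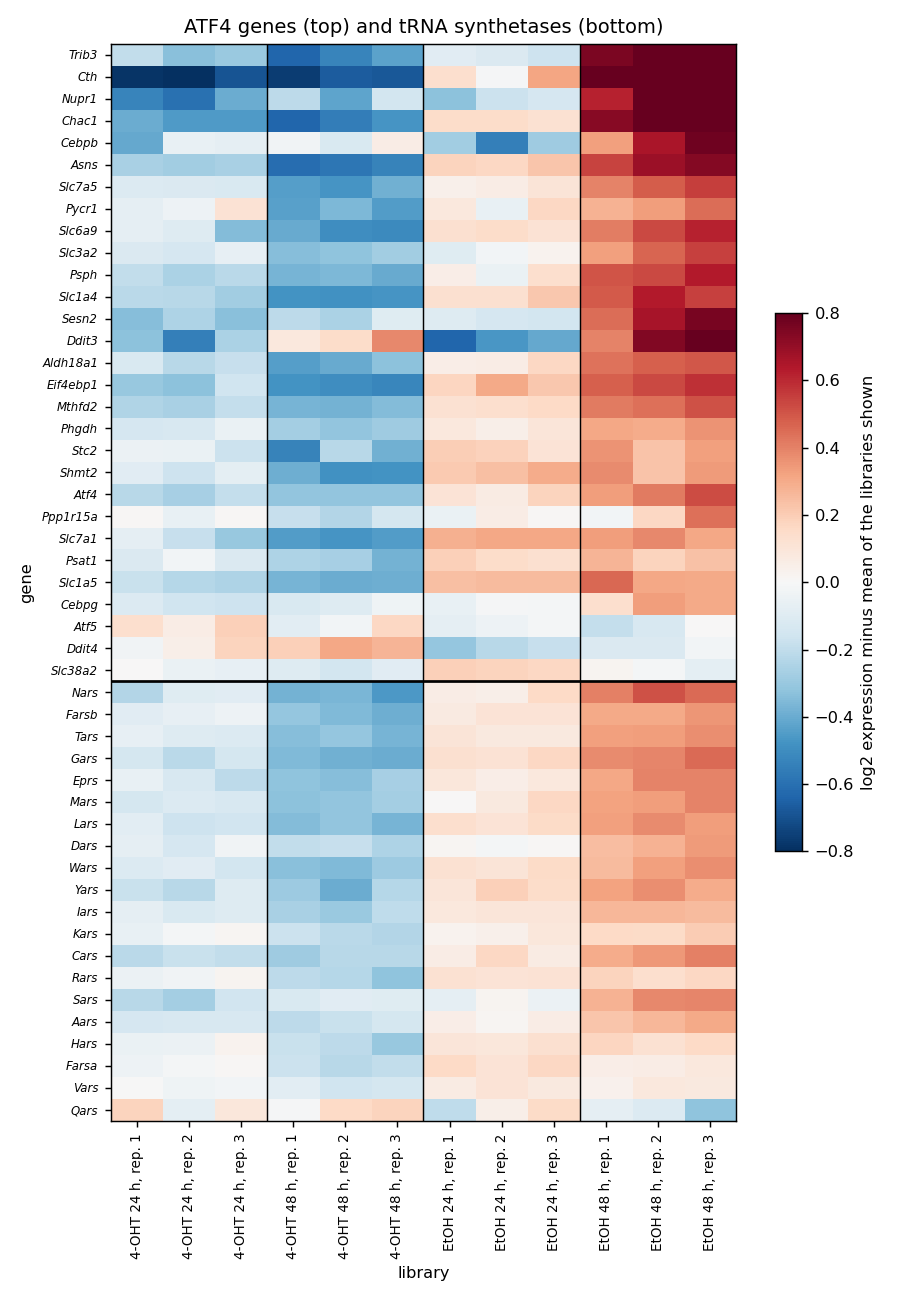
Deviation of log2 expression from the mean of the 12 libraries of the 4-OHT and EtOH groups (colour, red higher and blue lower, saturating at 0.8 either way) for 29 genes of the ATF4 list above the black line and 20 tRNA synthetases below it, with 1 column for each library. For most genes the 48 h columns are bluest in 4-OHT cells and reddest in EtOH cells, with Ddit3 and Ddit4 rising in both.

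**Figure D3:**
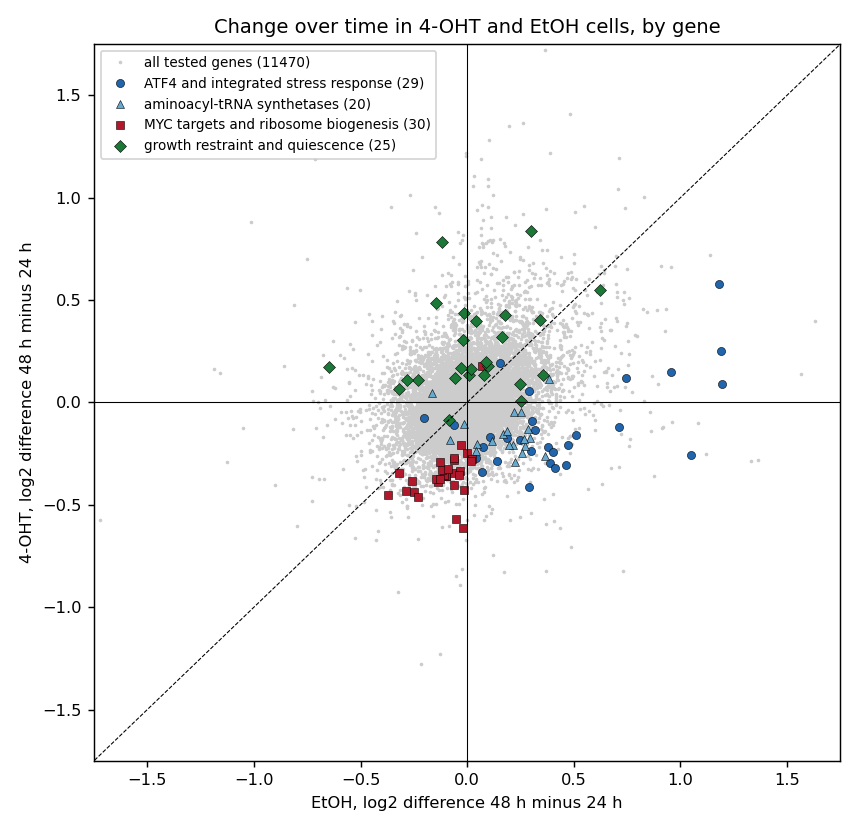
Difference in log2 expression from 24 h to 48 h in EtOH cells (x axis) and in 4-OHT cells (y axis) for 11470 tested genes (grey points, 3 of them outside the axes) with 4 gene lists marked and the dashed line marking equal change. Most ATF4 and tRNA synthetase genes lie at the lower right. On the y axis the ribosome biogenesis genes run from −0.61 to 0.18, with 27 of 30 called lower, and the growth restraint genes from −0.08 to 0.83, with 13 of 25 called higher.

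Energy and folding genes that changed mostly fell, where 11.6% of all tested genes fell. Of 21 glycolysis genes tested out of 23, 13 fell (61.9%) and 1 rose in 4-OHT cells, with a median of −0.17. Eno1, an enolase, stood at 12.81, 12.77 and 12.83 and then at 12.48, 12.43 and 12.37, a fall of −0.38 ± 0.04 (adjusted p = 0.000808). Ldha, the lactate dehydrogenase subunit, stood at 14.33, 14.30 and 14.39 and then at 14.10, 14.08 and 13.96, a fall of −0.29 ± 0.05 (adjusted p = 0.00398). Pfkl, a phosphofructokinase, and Pgam1, a phosphoglycerate mutase, fell by −0.36 ± 0.05 and −0.28 ± 0.04 (adjusted p = 0.00307 and 0.00407). The single rise, named after its value was seen, was Pfkm, another phosphofructokinase, at 0.15, a call lost without any library other than the third of 24 h, with an adjusted p of at most 0.141. In EtOH cells 5 of the 21 rose and 3 fell. The difference between the arms passed for 10 of the 21, all lower in 4-OHT, against 15.6% of all tested genes. Eno1 and several other glycolysis genes have processed pseudogenes whose reads may be shared, so their values are less certain than those of single-copy genes.

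Of 29 nuclear-encoded respiratory chain genes tested out of 30, 7 fell (24.1%) and none rose, with a median of −0.10. Of all tested genes 11.6% fell, and of the 5735 at or above the median level 1106 fell. The falls of the list took in Cox5a at −0.28 ± 0.04 and Cycs, which encodes cytochrome c, at −0.29 ± 0.05 (adjusted p = 0.0034 and 0.00457). Atp5b fell by −0.21 ± 0.04 and Ndufs1 by −0.17 ± 0.03 (adjusted p = 0.00794 and 0.0102). Of the 13 genes encoded by the mitochondrial genome none was called lower and 2 rose (15.4%, near the 10.6% of all tested genes that rose), mt-Atp8 at 0.22 ± 0.05 and mt-Nd5 at 0.11 ± 0.03 (adjusted p = 0.0194 and 0.0466). The call of mt-Atp8 was lost without the second library of 24 h or the first or second of 48 h, with an adjusted p of at most 0.0722, and that of mt-Nd5 without any 1 of the 6 libraries, with at most 0.138. In EtOH cells 6 of the 13 fell. The difference between the arms passed for 7 of the 13, all higher in 4-OHT, against 15.6% of all tested genes.

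Of 22 heat shock and chaperone genes tested out of 25, 16 fell (72.7%) and none rose, with a median of −0.21. The share of all tested genes that fell was 11.6%. The mitochondrial chaperonin gene Hspd1 stood at 13.85, 13.73 and 13.82 and then at 13.43, 13.43 and 13.33, a fall of −0.40 ± 0.04 (adjusted p = 0.00119). Cct3, a subunit of the cytosolic chaperonin, fell by −0.33 ± 0.04, Fkbp4, a partner of HSP90, by −0.35 ± 0.04, and Dnaja1, an HSP70 partner, by −0.25 ± 0.04 (adjusted p = 0.00132, 0.00137 and 0.00249). In EtOH cells 8 of the 22 fell and 1 rose. Of 24 unfolded protein response genes 12 fell (50%) and 2 rose, with Hspa5, the chaperone BiP of the endoplasmic reticulum, falling from 13.36, 13.34 and 13.36 to 13.00, 13.06 and 13.00. The change of Hspa5 was −0.34 ± 0.03 (adjusted p = 0.000808) and that in EtOH cells −0.39 (adjusted p = 0.000665). Hyou1 and Canx fell by −0.29 ± 0.03 and −0.25 ± 0.03 (adjusted p = 0.0011 and 0.00217), and Herpud1, which takes part in disposal of misfolded proteins, rose by 0.27 ± 0.04 (adjusted p = 0.00251).

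About as many growth restraint genes rose as did not pass. Of 25 genes tested out of 28 in the list of growth restraint and quiescence, 13 rose (52.0%) and none fell, with a median of 0.17, against the 10.6% of tested genes that rose. Mxd1, which encodes a MAX partner that opposes MYC, stood at 9.08, 9.09 and 9.04 and then at 9.80, 9.89 and 10.04, a rise of 0.83 ± 0.06 (adjusted p = 0.000301). Cdkn1a, the cyclin-dependent kinase inhibitor p21, stood at 8.49, 8.59 and 8.54 and then at 9.05, 9.10 and 9.14, a rise of 0.55 ± 0.05 (adjusted p = 0.000741). Klf13 rose by 0.32 ± 0.04 (adjusted p = 0.00119). Mxd1 rose more in 4-OHT than in EtOH cells, by 0.54 (adjusted p = 0.00195), whereas Cdkn1a rose by 0.62 in EtOH cells and its difference between the arms, −0.07 ± 0.15, did not pass (adjusted p = 0.787). In EtOH cells 5 of the 25 rose and 4 fell. The difference between the arms passed for 9 of the 25, all higher in 4-OHT, against 15.6% of all tested genes.

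Known FOXO targets rose more often than they fell while Foxo1 stayed low. Of 30 tested out of 32, 16 rose (53.3%) and 2 fell, with a median of 0.23, against the 10.6% of tested genes that rose. Besides Pik3ip1, Tsc22d3, which encodes the glucocorticoid-induced zipper protein GILZ, stood at 9.12, 9.20 and 9.23 and then at 9.77, 9.81 and 9.90, a rise of 0.65 ± 0.05 (adjusted p = 0.000349). In EtOH cells it rose by 0.64, and the 2 changes differed by 0.00 ± 0.12 (adjusted p = 0.989). Ccr7, a chemokine receptor for entry into lymph nodes, rose by 0.54 ± 0.07 (adjusted p = 0.00165), and Bcl6, a repressor of differentiation and DNA damage responses, by 0.80 ± 0.10 (adjusted p = 0.00167) from a low level of 5.23, 5.31 and 5.23 to 5.84, 6.18 and 6.13. The genes that fell, named after their values were seen, were Sod2, the mitochondrial superoxide dismutase, at −0.20 ± 0.04 (adjusted p = 0.0159, or 0.0525 without the second library of 48 h) and Trib3 at −0.26 ± 0.07 (adjusted p = 0.0259), which is also in the ATF4 list and is described below. Il7r, the interleukin-7 receptor, also named after its values were seen, stood at 9.74, 9.71 and 9.49 and then at 10.17, 10.07 and 9.90, a rise of 0.40 ± 0.09 (adjusted p = 0.0134) that left it below the EtOH libraries, which fell from 11.08, 11.14 and 10.98 to 10.82, 10.70 and 10.64. In EtOH cells 10 of the 30 targets rose and 5 fell. The difference between the arms was higher in 4-OHT for 10 of them, lower for 3 and not called for 17, where 15.6% of all tested genes differed. Ccr7 also rose in EtOH cells, by 0.28 (adjusted p = 0.0449 in limma). Its difference between the arms, 0.26 ± 0.11, did not pass (adjusted p = 0.138 in limma).

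Replication genes that changed all fell. Of 30 G1/S and DNA replication genes, 15 fell (50%) and none rose, with a median of −0.18, against the 11.6% of tested genes that fell. Mcm2 and Mcm6, subunits of the replicative helicase, fell by −0.27 ± 0.04 and −0.21 ± 0.03 (adjusted p = 0.00207 and 0.0035), Tyms, the thymidylate synthase, by −0.32 ± 0.06 (adjusted p = 0.00745), and Chaf1b, a chromatin assembly factor, by −0.27 ± 0.05 (adjusted p = 0.00885). EtOH cells had more falls over the same day, 26 of 30 with a median of −0.24. The difference between the arms passed for 4 of the 30, all higher in 4-OHT, a number near the share of all tested genes that differed, 15.6%. Of 30 G2/M and mitosis genes 3 rose, Anln at 0.17 ± 0.04, Tpx2 at 0.15 ± 0.04 and Dlgap5 at 0.18 ± 0.05 (adjusted p = 0.0162, 0.0207 and 0.0482), and none fell. The call of Anln was lost without the first or the third library of 48 h (adjusted p at most 0.0575), that of Tpx2 without either of those or the first of 24 h (at most 0.071), and that of Dlgap5 without any library other than the first of 48 h (at most 0.148). The share of genes that rose, 10%, was close to the 10.6% of all tested genes that rose.

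**Figure D4:**
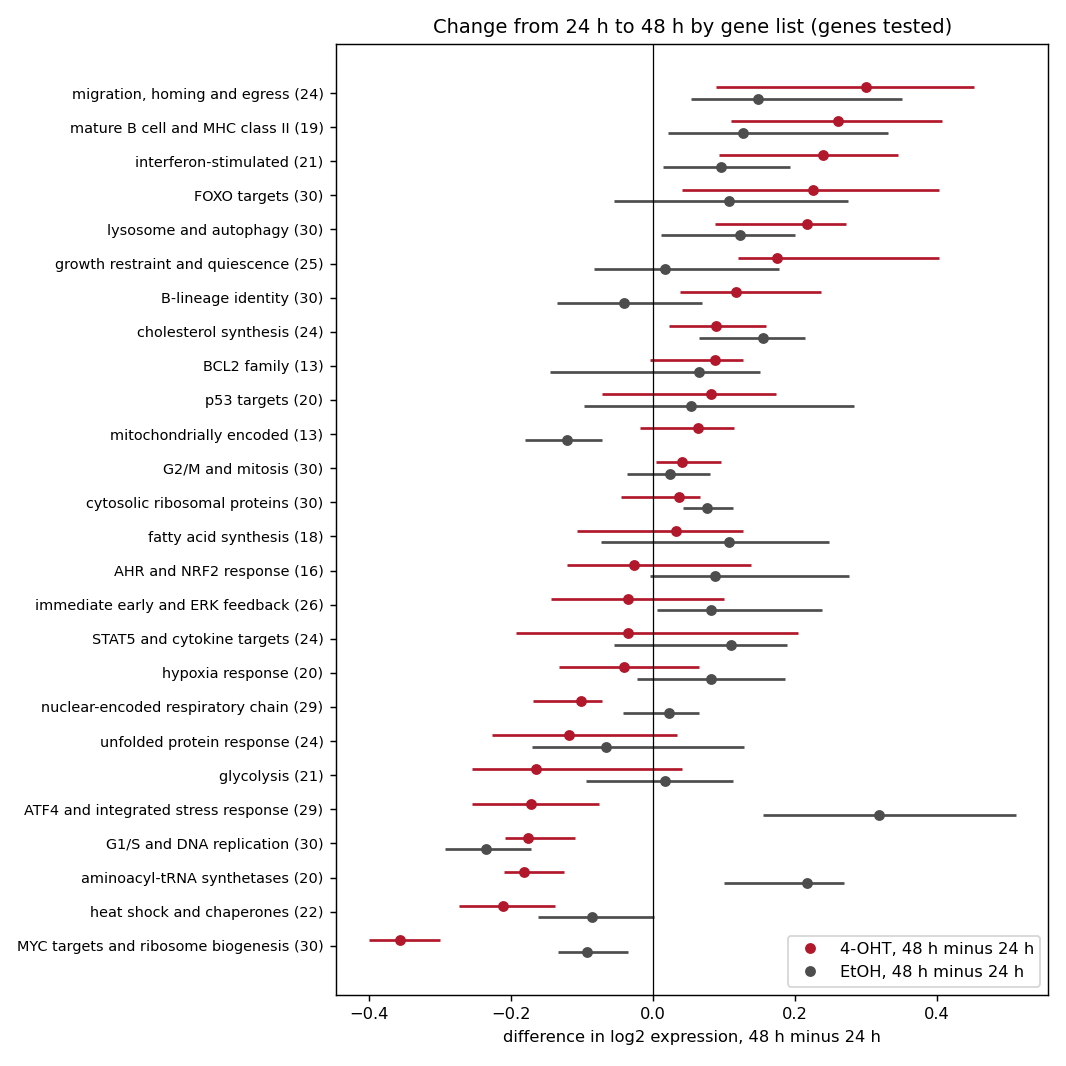
Median difference in log2 expression from 24 h to 48 h (points) and the interquartile range of the genes (lines) for 26 lists with at least 10 tested genes, in 4-OHT cells (red) and EtOH cells (grey), with the number of tested genes in brackets. The ribosome biogenesis list has the lowest 4-OHT median, −0.36, and the ATF4 and tRNA synthetase lists have medians on opposite sides of 0 in the 2 arms.

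B-lineage genes that changed rose modestly. Of 30 B-lineage identity genes 13 rose (43.3%) and none fell, with a median of 0.12, while in EtOH cells 6 rose and 9 fell. The share of all tested genes that rose in 4-OHT cells was 10.6%. The difference between the arms was higher in 4-OHT for 11 of the 30, lower for 2 and not called for 17. Dntt, the template-independent polymerase of early lymphocytes, stood at 11.64, 11.73 and 11.90 and then at 12.22, 12.36 and 12.42, a rise of 0.58 ± 0.07 (adjusted p = 0.00183), and EtOH cells stayed between 11.16 and 11.32. Spib, an ETS factor of B cells, rose by 0.53 ± 0.04, Cd22, an inhibitory receptor, by 0.40 ± 0.04, and Cd72 by 0.36 ± 0.05 (adjusted p = 0.00038, 0.00107 and 0.00205). Cd22 also rose in EtOH cells, by 0.70 (adjusted p = 0.0139 in limma). The differences between the arms, −0.31 ± 0.18 for Cd22 and 0.32 ± 0.12 for Cd72, did not pass (adjusted p = 0.273 and 0.0959 in limma). Of 19 mature B-cell and MHC class II genes tested out of 26, 9 rose (47.4%) and none fell, with a median of 0.26. In EtOH cells 7 of the 19 rose and 1 fell, with a median of 0.13. The difference between the arms passed for 5 of the 19, with 4 higher and 1 lower in 4-OHT, where 15.6% of all tested genes differed. The class II chains H2-Ab1 and H2-Aa rose by 0.44 ± 0.05 and 0.92 ± 0.10 (adjusted p = 0.00135 and 0.00101), H2-Aa from a low level of 4.46, 4.51 and 4.66 to 5.30, 5.49 and 5.61. H2-Ob, which modulates peptide loading, rose by 0.49 ± 0.08 and Tnfrsf13c, the receptor for the survival factor BAFF, by 0.27 ± 0.05 (adjusted p = 0.00446 and 0.00562). In EtOH cells H2-Ab1 rose by 0.55, and its difference between the arms, −0.11 ± 0.08, did not pass (adjusted p = 0.392).

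Genes of migration and homing rose, 15 of 24 tested out of 30 (62.5%) with none falling and a median of 0.30. The share of all tested genes that rose was 10.6%. In EtOH cells 9 of the 24 rose and 3 fell. The difference between the arms was higher in 4-OHT for 4, lower for 2 and not called for 18, where 15.6% of all tested genes differed. Cd53, a tetraspanin of leukocytes, stood at 9.19, 9.03 and 9.09 and then at 9.90, 9.84 and 9.73, a rise of 0.72 ± 0.06 (adjusted p = 0.000449). In EtOH cells it stood at 11.29, 11.23 and 11.30 and then at 11.88, 11.98 and 12.05. Cd53 thus rose by about the same amount in both arms, a difference of 0.02 ± 0.08 (adjusted p = 0.907), and its difference from EtOH cells was −2.17 ± 0.05 at 24 h and −2.15 ± 0.06 at 48 h. Itgb2, the beta-2 integrin chain, rose by 0.55 ± 0.06, and Cxcr4, the chemokine receptor that keeps B-cell precursors in the bone marrow, by 0.33 ± 0.04 (adjusted p = 0.00108 and 0.00151). Cxcr4 rose from 11.93, 11.91 and 12.01 to 12.23, 12.31 and 12.30, while EtOH cells stayed between 11.04 and 11.18.

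Of 30 lysosome and autophagy genes tested out of 33, 15 rose (50%) and none fell, with a median of 0.22. The share of all tested genes that rose was 10.6%. In EtOH cells 12 of the 30 rose and 1 fell. The difference between the arms was higher in 4-OHT for 6, lower for 1 and not called for 23, where 15.6% of all tested genes differed. Psap, the precursor of the saposins that help digest sphingolipids, stood at 13.73, 13.78 and 13.86 and then at 14.36, 14.47 and 14.55, a rise of 0.67 ± 0.05 (adjusted p = 0.000349). Atp6v0d1, a proton pump subunit, rose by 0.41 ± 0.04, and the protease cathepsin B gene Ctsb by 0.32 ± 0.04 (adjusted p = 0.000711 and 0.00177). Of 21 interferon-stimulated genes tested out of 31, 10 rose (47.6%) and 1 fell, with a median of 0.24, against 2 rises and no fall in EtOH cells. The difference between the arms passed for 4 of the 21, all higher in 4-OHT, and was not called for 17, near the 15.6% of all tested genes. Oas3, a sensor of double-stranded RNA, rose by 0.91 ± 0.09 from a low level of 4.67, 4.76 and 4.78 (adjusted p = 0.000759), Bst2, also called tetherin, by 0.60 ± 0.10 (adjusted p = 0.00394), and the transcription factors Irf1 and Stat2 by 0.28 ± 0.04 and 0.24 ± 0.04 (adjusted p = 0.004 and 0.00703). The gene that fell, named after its value was seen, was Gbp7, a guanylate-binding protein, at −0.23 ± 0.05 (adjusted p = 0.0188), a call lost without the first or second library of 24 h or the first of 48 h, with an adjusted p of at most 0.0678.

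Signalling targets were mixed, where 10.6% of all tested genes rose and 11.6% fell. Of 24 STAT5 and cytokine target genes tested out of 26, 6 rose (25%) and 8 fell (33.3%), with a median of −0.04 that turns to 0.01 under quantile normalization. Ccnd2, the D-type cyclin of cytokine-driven growth, stood at 13.88, 13.87 and 13.84 and then at 13.48, 13.50 and 13.50, a fall of −0.37 ± 0.03 (adjusted p = 0.00038). The phosphatase genes Dusp5 and Dusp6, which are raised by ERK signalling and act back on it, fell by −0.32 ± 0.04 and −0.28 ± 0.04 (adjusted p = 0.00226 and 0.0029). In EtOH cells Ccnd2 and Dusp5 gave no called change and Dusp6 rose by 0.20 (adjusted p = 0.00326). Of 26 immediate early and ERK feedback genes tested out of 30, 4 rose (15.4%) and 5 fell (19.2%). Etv5, an ETS factor induced by ERK, fell by −0.30 ± 0.05 (adjusted p = 0.00503) from 10.58, 10.57 and 10.54 to 10.35, 10.28 and 10.17, and it rose by 0.36 in EtOH cells (adjusted p = 0.000694). Ier5, and the RNA-destabilising protein genes Zfp36 and Zfp36l1, rose by 0.42 ± 0.04, 0.35 ± 0.06 and 0.22 ± 0.04 (adjusted p = 0.000866, 0.00587 and 0.00989).

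Death genes moved in both directions, where 10.6% of all tested genes rose and 11.6% fell. Of 13 BCL2 family genes tested out of 18, 4 rose (30.8%) and 3 fell (23.1%). The BH3-only genes Bbc3, Bmf and Bcl2l11, whose products are PUMA, BMF and BIM, rose by 0.71 ± 0.12, 0.66 ± 0.12 and 0.22 ± 0.04 (adjusted p = 0.00478, 0.00676 and 0.0103), and Bid fell by −0.24 ± 0.05 (adjusted p = 0.00937). Bmf stood at 9.57, 9.50 and 9.45 and then at 9.93, 10.09 and 10.48, with the third library of 48 h the highest. Bbc3 also rose in EtOH cells, by 0.44 (adjusted p = 0.0146 in limma). Its difference between the arms, 0.27 ± 0.16, did not pass (adjusted p = 0.288 in limma). Bcl2l11 fell in EtOH cells, by −0.20 (adjusted p = 0.0318), and its difference between the arms was 0.43 ± 0.07 (adjusted p = 0.00252). Of 20 p53 targets tested out of 26, 5 rose (25%) and 4 fell (20.0%), with Trp53inp1, Cdkn1a and Bbc3 among the rises and Aen, an exonuclease gene, falling by −0.34 ± 0.06 (adjusted p = 0.00598).

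Lipid, hypoxia and redox lists showed smaller shares, where 10.6% of all tested genes rose and 11.6% fell. Of 24 cholesterol synthesis genes tested out of 25, 5 rose (20.8%) and none fell, led by Insig1, which retains the sterol sensor in the endoplasmic reticulum, at 0.54 ± 0.05 (adjusted p = 0.000584). Srebf2, Hmgcs1 and Msmo1 rose by 0.19 ± 0.04, 0.20 ± 0.04 and 0.16 ± 0.04 (adjusted p = 0.0108, 0.0119 and 0.0324), and in EtOH cells 12 of the 24 rose. Of 18 fatty acid synthesis genes tested out of 20, 3 rose and 3 fell (16.7% each way), with the desaturase gene Scd1 at 0.28 ± 0.04, Acss2 at 0.36 ± 0.09, Acly at −0.17 ± 0.03 and Elovl1 at −0.25 ± 0.05 (adjusted p = 0.00359, 0.0222, 0.00601 and 0.00745). Of 20 hypoxia response genes tested out of 22, 4 fell (20.0%) and 2 rose. The carbonic anhydrase gene Car12 fell by −0.40 ± 0.06, Ankrd37 by −0.31 ± 0.08 and the kinase gene Pdk1 by −0.16 ± 0.04, and Mxi1 rose by 0.20 ± 0.05 (adjusted p = 0.00307, 0.0224, 0.0246 and 0.034). Of 16 AHR and NRF2 response genes tested out of 24, 3 rose, Nfe2l2, which encodes NRF2 itself, at 0.37 ± 0.06, Fth1 at 0.17 ± 0.04 and Gstm1 at 0.31 ± 0.09, and 1 fell, G6pdx at −0.16 ± 0.04 (adjusted p = 0.00448, 0.0181, 0.0329 and 0.0326). Several of these calls were lost when 1 library was left out. Ankrd37, Fth1 and G6pdx were lost without any library other than the third of 24 h, Msmo1 without any other than the first of 48 h, and Gstm1 without any other than the first of 24 h, with adjusted p of at most 0.11. Acss2 and Mxi1 were lost without the first or second of 24 h or the second or the third of 48 h, and Pdk1 without the first or second of either time, with adjusted p of at most 0.107.

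Some markers of other cell types rose with these lists, where 10.6% of all tested genes rose and 11.6% fell. Of 22 T and NK cell markers 8 were tested and 3 were at 0 in every library. Of the 8, 3 rose, Cd5, Zap70 and Cd28, by 1.09 ± 0.06, 0.72 ± 0.07 and 0.46 ± 0.07 (adjusted p = 6.87e-05, 0.0007 and 0.00421). In EtOH cells 3 of the 8 rose and 1 fell, and the difference between the arms was higher in 4-OHT for 3 and lower for 1. Cd5, a negative regulator of antigen receptor signalling that is also found on some B cells, went from values of 6.93 or more at 24 h to 8.05 or more at 48 h, while EtOH libraries stayed between 5.08 and 5.38. The summed linear level of the 19 members with values was 6760 to 7220 at 24 h and 7560 to 8010 at 48 h of 4-OHT. In EtOH cells the sum also rose, from 3810 to 3900 at 24 h to 4110 to 4460 at 48 h. Cd3e and Cd3d were below the filter. Of 20 myeloid markers 5 were tested and 5 were at 0 in every library, and 2 rose, Csf1r by 0.83 ± 0.08 and Cx3cr1 by 0.55 ± 0.08 (adjusted p = 0.000741 and 0.00318), both at low levels, with a summed level of 287 to 306 at 24 h and 310 to 346 at 48 h. In EtOH cells no tested myeloid marker was called, and the sum was 220 to 240 at 24 h and 228 to 248 at 48 h. Of 14 erythroid markers 2 were tested and 6 were at 0, and Tfrc, the transferrin receptor of dividing cells, fell by −0.38 ± 0.06 (adjusted p = 0.00391), with a summed level of 7700 to 9090 and then 6220 to 6580. In EtOH cells 1 of the 2 fell too, and the sum went from 10800 to 11100 at 24 h to 6030 to 7480 at 48 h. Of 18 stromal and endothelial markers 2 were tested and 6 were at 0, and Pecam1, which leukocytes also carry, rose by 0.39 ± 0.04 (adjusted p = 0.0009), with a summed level of 3200 to 3470 and then 3510 to 3860. In EtOH cells 1 of the 2 fell, and the sum was 2530 to 2660 at 24 h and 2520 to 2630 at 48 h. The part of other cells in the results was not tested, and a change in the share of a cell type cannot be told apart from a change in RNA per cell. A value of 0 here says only that the gene is listed at 0, since genes that every cell uses, such as Ndufa9 and Hexa, are listed so too.

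The same day in EtOH cells changed 2908 genes, 1534 higher and 1374 lower. Of the 2556 genes called in 4-OHT cells, 973 were also called in EtOH cells, 38.1% of the 4-OHT calls and 33.5% of the EtOH calls, with 800 in the same direction. The 173 in opposite directions comprised 58 that rose with 4-OHT and fell with EtOH and 115 that fell with 4-OHT and rose with EtOH. The test of the difference passed for 1790 genes (15.6% of those tested), 754 higher and 1036 lower in 4-OHT cells. It took in 413 of the 1220 rises (33.9%), of which 389 were higher in 4-OHT than in EtOH. It also took in 573 of the 1336 falls (42.9%), of which 563 were lower. The calls and this test use the same 4-OHT libraries, so these shares cannot be read against 15.6% as a separate result. For the remaining called genes no difference between the arms was called. With libraries rescaled to equal medians, the EtOH split became 1240 higher and 1762 lower and the split of the difference became 1011 higher and 776 lower.

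Several of the largest differences were genes that fell in EtOH cells. Ahnak, which encodes a giant scaffold protein, stood at 10.96, 10.81 and 10.34 and then at 11.42, 11.33 and 11.47 in 4-OHT cells, and at 9.43, 9.61 and 9.53 and then at 8.80, 8.75 and 8.78 in EtOH cells, a difference in change of 1.45 ± 0.16 (adjusted p = 0.000155). Sp1, a transcription factor of GC-rich promoters, stood at 11.47, 11.38 and 11.72 and then at 12.01, 12.11 and 12.13, and in EtOH cells at 12.21, 12.18 and 12.07 and then at 11.52, 11.46 and 11.79, a difference of 1.12 ± 0.13 (adjusted p = 0.000155). Both genes rose in 4-OHT cells and fell in EtOH cells. Ighg2b, at 1.07, and the mismatch repair homologue gene Msh5, at 0.93, followed. Tmprss3, at 1.04, and the long non-coding RNA Malat1, at 0.91, differed between the arms without a called change in 4-OHT cells (adjusted p = 0.1 and 0.199). The largest negative difference was that of Trib3, a pseudokinase gene raised by ATF4, which stood at 9.45, 9.31 and 9.35 and then at 9.01, 9.12 and 9.22 in 4-OHT cells and at 9.56, 9.53 and 9.48 and then at 10.40, 10.53 and 10.80 in EtOH cells. Its difference was −1.30 ± 0.12 (adjusted p = 5.27e-05), and its call in 4-OHT cells alone was lost without the first library of 24 h or the first or second of 48 h, with an adjusted p of at most 0.0824. Cth, the cystathionine gamma-lyase of cysteine synthesis, differed by −1.11 ± 0.13 with no called change in 4-OHT cells (adjusted p = 0.376), and Gpt2, a mitochondrial alanine aminotransferase gene, by −0.97 ± 0.10. Gpt2 fell in 4-OHT cells by −0.21 (adjusted p = 0.0382), a call lost without any library other than the third of 48 h, with an adjusted p of at most 0.117. H19, Gng4 and Tubb3 completed this set at −1.104, −1.064 and −1.001.

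Over the same interval AS1842856 cells had 46 called genes (0.401%) and DMSO cells 1 (0.00872%). The counts in this arm come with a larger error, a median standard error of 0.092 and 0.091 against 0.062 in 4-OHT cells, and genes with an unadjusted p under 0.05 numbered 2089 and 1169 against 4100. The change in 4-OHT cells differed from that in AS1842856 cells for 133 genes (1.16%). Of the 29 ATF4-list genes, 6 rose and none fell with AS1842856, with a median of 0.33, and 13 differed from 4-OHT, all lower in 4-OHT. Trib3 stood at 8.29, 8.17 and 8.70 and then at 9.70, 9.30 and 9.60 with AS1842856, a rise of 1.15 ± 0.15 (adjusted p = 0.031), and its change in 4-OHT cells was lower by −1.40 ± 0.18 (adjusted p = 0.00389). Cd69, an early activation receptor, rose with AS1842856 from 9.12, 8.82 and 9.11 to 9.99, 9.66 and 9.94 and fell with 4-OHT by −0.25 ± 0.05, a difference of −1.09 ± 0.13 (adjusted p = 0.00308). Gpt2 and the neutral amino acid transporter gene Slc1a4 differed by −1.12 ± 0.19 and −0.86 ± 0.11 (adjusted p = 0.0203 and 0.00389). In the other direction Sp1 differed by 0.94 ± 0.17, the T-cell receptor gamma constant gene Tcrg-C1 by 0.83, the ubiquitin ligase gene Rnf14 by 0.80 and the kinase gene Nek6 by 0.79 (adjusted p = 0.0203, 0.0194, 0.032 and 0.0495). Reads of Tcrg-C1 can be shared with its near-identical copies, so that value is uncertain. Doses differ between the treatments and so does the solvent, and these cannot be told apart from the agents.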

How the data were processed

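Bulk RNA-seq of 24 libraries was analysed from the authors' processed tables, 6 libraries carrying the 4-OHT comparison. The submitters' processing notes list DESeq2 1.44.0, Salmon 1.1.1, STAR 2.7.11b and build mm10 without a role for each. Neither strandedness nor the counting rule is given in these sources, and overlapping and antisense genes cannot be separated. The 4 tables were joined by gene identifier. Library values and means are log2 values that the authors deposited after normalisation by a transformation the headers do not name. The deposited log2 fold changes served as a scale check, with median ratios of the library difference to them of 0.676 at 24 h and 0.664 at 48 h, so differences here are smaller. Of 41444 genes, 20000 had values, and 11470 with a mean of at least log2 of a normalised count of 10 plus 1 were tested. limma 3.58.1 (R 4.3.3), with trended empirical Bayes variance, fitted the 2 groups of each comparison, or 4 groups for differences between arms, two-sided, with Benjamini-Hochberg adjustment over the 11470 genes, and was tested on simulated data. The planned count test and the added 1 were not used, because the values were already log2. The members and the 30 gene lists, 762 entries with 635 tested, were chosen with earlier results of these data known. Named genes were the FOXO genes, the 10 largest called rises and falls without overlap, up to 4 per list by smallest adjusted p, and the largest differences from EtOH (6 each way) and AS1842856 (4 each way), except genes said to be named after their values were seen. Those chosen by size lay at or above the median level and carried no predicted or clone name. Some genes that the rule or the lists name are not reported here. Positions came from GENCODE M21 on GRCm38, which held 11438 of the tested identifiers. Alternatives covered scaling, filter, variance model, threshold, samples fitted, replicate block and leaving out each library. Figures used matplotlib 3.10.9.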

Additional observations from a re-analysis of the deposited data

Results flagged for a closer look

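Named genes whose change from 24 h to 48 h differed between 4-OHT and EtOH cells were singled out by the limma test of that difference. The test passed for 86 named genes reported here and for 1790 genes in all. Each value that follows is the log2 change in 4-OHT cells minus that in EtOH cells.

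Among regulators of growth and death, the difference was 0.224 for Foxo4, 0.574 for Pik3ip1, 0.904 for Btg2, 0.536 for Mxd1, 0.682 for Trp53inp1, 0.676 for Bcl6, 0.595 for Bmf, 0.427 for Bcl2l11 and −0.372 for Bid. Among the other largest rises and falls it was 1.071 for Ighg2b, 0.689 for Mef2c, 0.701 for Snn, 0.585 for Pqlc3, 0.37 for Neat1, 0.609 for Rhobtb2, −1.064 for Gng4, −1.104 for H19, −0.599 for Ssc5d, −0.857 for Vat1l, −1.001 for Tubb3, −0.775 for Cndp2 and −0.536 for Sema7a. In B-lineage, antigen presentation and homing genes it was 0.336 for Spib, 0.66 for Dntt, 0.658 for H2-Aa, 0.346 for Itgb2 and 0.365 for Cxcr4.

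For polyamine and ribosome biogenesis genes it was −0.592 for Odc1, −0.519 for Srm, −0.411 for Mybbp1a and −0.228 for Gar1. For amino acid genes it was −1.305 for Trib3, −1.107 for Cth, −0.973 for Gpt2, −0.73 for Slc7a5, −0.77 for Asns, −0.408 for Shmt2, −0.705 for Pycr1 and −0.642 for Slc1a4, and for synthetases −0.512 for Farsb, −0.503 for Tars, −0.484 for Gars and −0.42 for Lars. For glycolysis, hypoxia and lipid genes it was −0.419 for Eno1, −0.272 for Ldha, −0.39 for Car12, −0.276 for Pdk1, 0.27 for Insig1, −0.12 for Acly and −0.244 for Elovl1. For respiratory chain genes it was −0.277 for Cox5a, −0.231 for Atp5b and −0.238 for Ndufs1, with 0.322 for mt-Atp8, 0.186 for mt-Nd5 and 0.346 for mt-Cytb. For folding genes it was −0.221 for Hyou1, −0.204 for Canx, −0.288 for Hspd1, −0.272 for Cct3 and −0.332 for Fkbp4.

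For signalling targets it was −0.399 for Ccnd2, −0.349 for Dusp5, −0.481 for Dusp6, 0.214 for Ier5, −0.661 for Etv5, 0.277 for Zfp36l1 and −0.732 for Cd69. For interferon and lysosome genes it was 0.721 for Oas3, 0.221 for Irf1, 0.306 for Stat2, 0.378 for Psap and 0.212 for Atp6v0d1. For markers of other cell types it was 0.997 for Cd5, 0.583 for Zap70, 0.468 for Lck, 0.637 for Tcrg-C1, 0.875 for Csf1r, 0.482 for Cx3cr1, 0.32 for Tfrc and 0.666 for Pecam1. The last set was 1.449 for Ahnak, 1.122 for Sp1, 1.04 for Tmprss3, 0.928 for Msh5 and 0.908 for Malat1.

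Between 4-OHT and AS1842856 cells the test passed for 8 named genes and 133 in all. The log2 change in 4-OHT cells minus that in AS1842856 cells was 0.944 for Sp1, 0.828 for Tcrg-C1, 0.802 for Rnf14, 0.786 for Nek6, −1.402 for Trib3, −1.122 for Gpt2, −1.095 for Cd69 and −0.865 for Slc1a4.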

How the results depend on the processing

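The 2556 calls of 4-OHT cells numbered 1324 in 1 fit of all 8 groups, 1662 with no level filter and 1082 at an adjusted p under 0.01. Leaving out 1 library in turn gave 1525 to 2342, the lowest without the third 48 h library. Of those 1525, 1487 were among the 2556, all in the same direction. For EtOH cells the 2908 calls numbered 1332 in the fit of all 8 groups, 1689 with no filter and 1068 at 0.01, and 1704 to 2858 without 1 library, with 1751 without the first and 1892 without the second 24 h library, and 1810 without the second and 1704 without the third 48 h library. The 1790 differences between the arms numbered 755 at 0.01 and 1278 to 1718 without 1 library. The cause of these changes was not tested. Same-numbered libraries of 4-OHT cells did not deviate together across the times, with correlations of 0.005, −0.089 and −0.189. These values do not settle whether the numbers pair libraries. A replicate block gave 1626 calls in 4-OHT cells. With a block on replicate number across 4-OHT and EtOH libraries, 1714 genes differed between the arms, against 1790. That block assumes that the numbers pair 4-OHT with EtOH libraries, and whether they do was not tested. Named genes lost their call in 46 cases in the fit of all 8 groups, 21 with no filter, 15 with a replicate block, 7 with a constant prior variance, 2 under quantile normalization and 2 in 1 fit of the 4 groups of the deletion arm. No named gene reversed under any alternative run, and 108 of the 129 named genes that were called kept the call without any 1 library. Depth is unknown, so what it limits cannot be given.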
